A study of Sus scrofa with 2 samples.

Results

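A set of 10 genes for enzymes that oxidise foreign and reactive compounds or remove oxidants were followed through single cells of pig back muscle. They are FMO1, FMO2, AOX1, CYP2B22, GSTM3, ALDH3A1, SOD2, SOD3, TXNRD1 and SRXN1, picked by symbol from the feature list and all found among the 21301 features. They were picked with earlier results of these data known, so their levels and differences are given as description, with no test. The cells came from the longissimus dorsi, the long muscle beside the spine, of piglets. GDSS stands for the breed labelled Guangdong small-eared spotted pig, and the other breed is the Yorkshire; the design text sets them side by side because they differ in fat within the muscle. Each breed had 1 library of the same tissue, cell label and handling, from 1 g of muscle per piglet freed of red and dead cells. The sample titles carry a "P0" that the labels do not explain, and the labels state neither the sex or age of the piglets nor how many entered a library. Breed, animal and library therefore cannot be told apart, and a difference below is one between these libraries.

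Flavin monooxygenases, aldehyde oxidase and cytochromes P450 are phase I enzymes: they put an oxygen on drugs, plant compounds and some of the body's own molecules, mostly in the liver but also in other tissues. Glutathione transferases then join glutathione to reactive products, and aldehyde dehydrogenases oxidise aldehydes to acids. Superoxide dismutases turn superoxide into hydrogen peroxide, and the thioredoxin and peroxiredoxin cycles, which thioredoxin reductase and sulfiredoxin keep running, dispose of the peroxide. TXNRD1 and SRXN1 are textbook targets of NRF2, the transcription factor of the antioxidant response.

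After filters, 10582 GDSS and 12667 Yorkshire cells were kept, with medians of 2873.5 UMIs (counted molecules) per GDSS cell and 3003 UMIs per Yorkshire cell. The label calls them vascular stem cells, but marker gates found 7 classes. Cells like fibro-adipogenic progenitors (FAP-like), the stromal cells of muscle, were 73.9% of the kept cells in GDSS and 15.7% in Yorkshire. Satellite-like cells, which carry markers of muscle stem cells, were 3.64% in GDSS and 35.1% in Yorkshire, and endothelial-like cells 2.98% in GDSS and 13.1% in Yorkshire. The mural-like, glia-like, macrophage-like and myofibre-like classes each held at most 5.75% of a library, and 10.8% of GDSS and 21.6% of Yorkshire cells had no class. The libraries shared 37 kept barcodes. Levels are counts per 1000000 UMIs of the class in that library (CPM), followed in brackets by the 95% exact Poisson interval. Ratios carry the 95% exact binomial interval, and both intervals cover counting error only. A gene counted as measured in a class with at least 100 UMIs over both libraries, and as apart when the libraries differed at least 1.5-fold. A gene near that minimum passes mainly through the library where it is high, so counts of measured genes are no support for a difference.

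**Figure D1:**
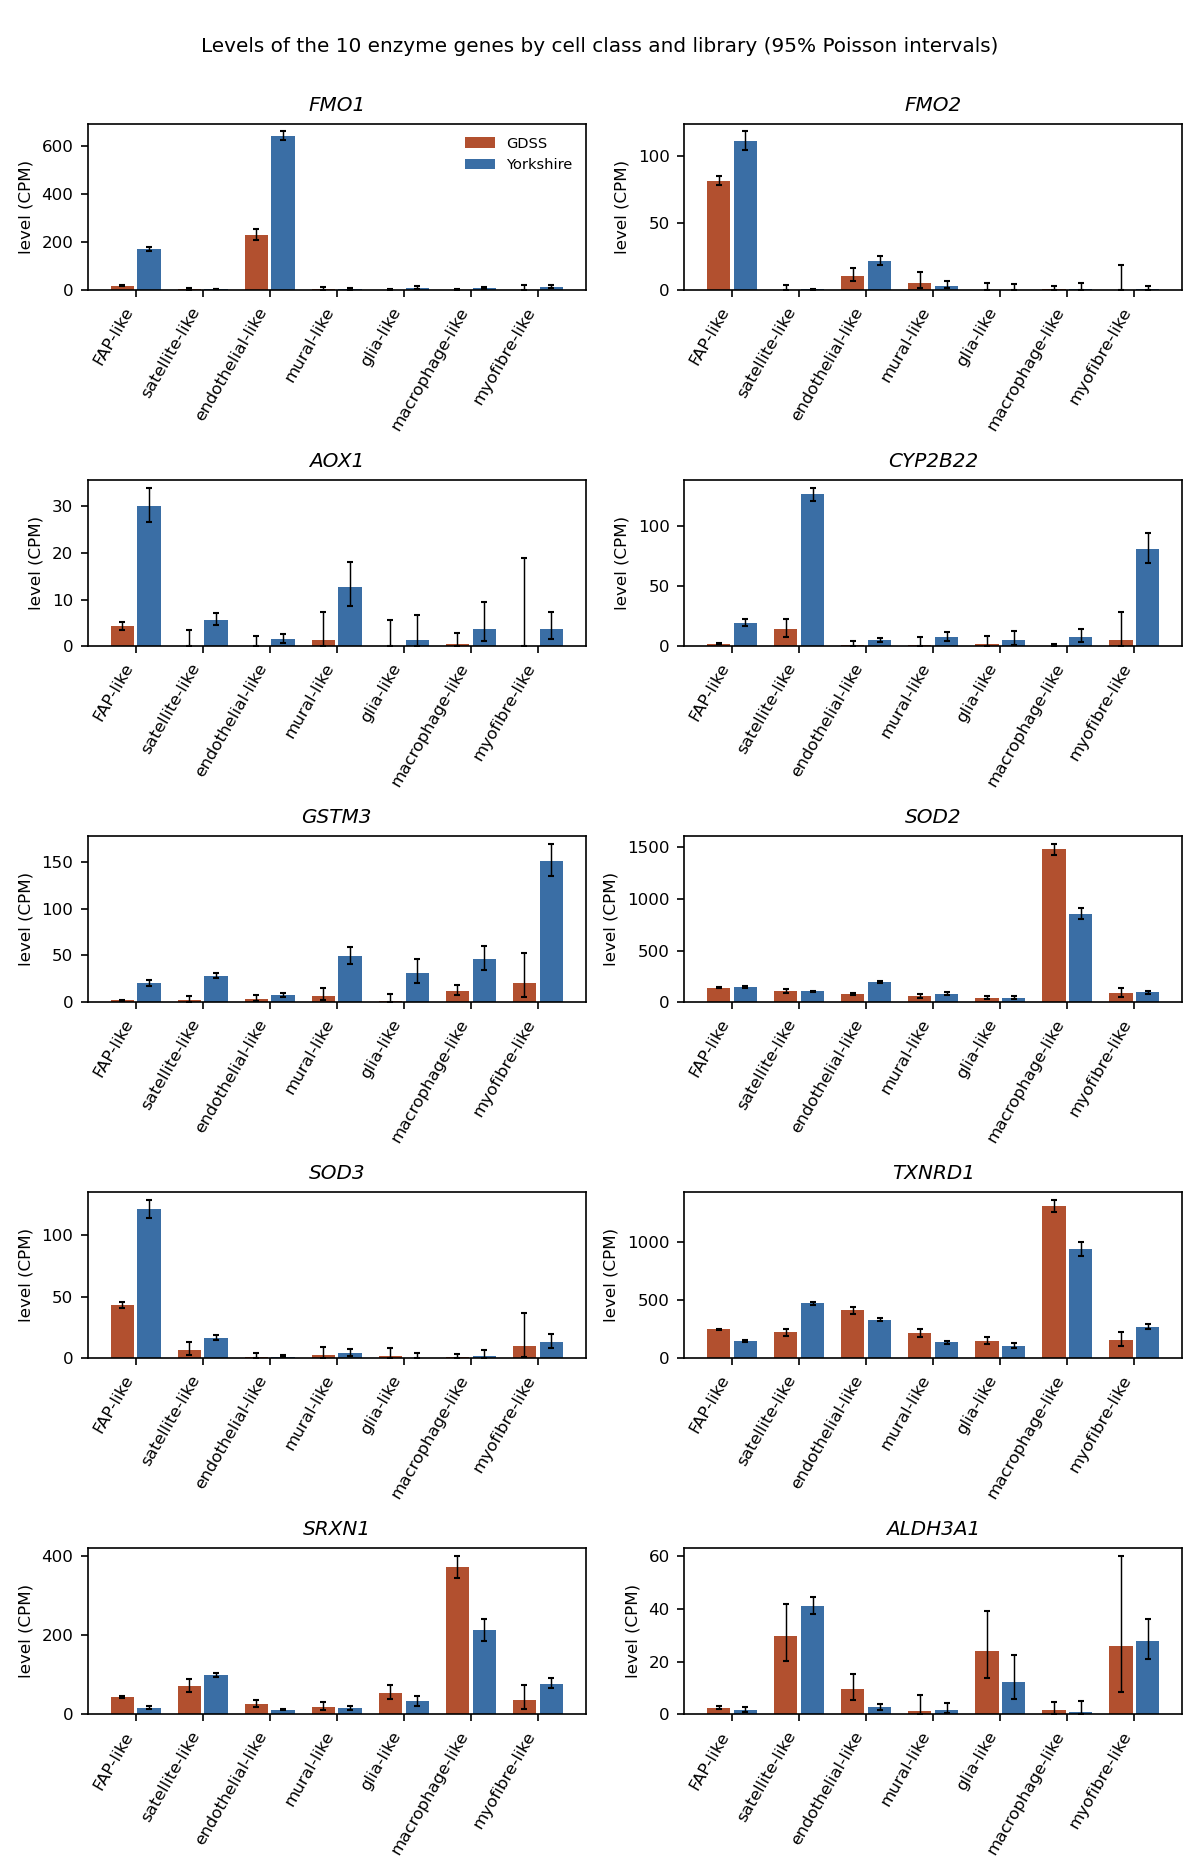
Level of each of the 10 genes in CPM (y axis, a separate linear scale per gene) in the 7 marker-gated cell classes (x axis), GDSS bars left of Yorkshire bars, with 95% exact Poisson intervals. FMO1 peaks in endothelial-like cells at 229 CPM in GDSS cells and 643 CPM in Yorkshire cells, FMO2, AOX1 and SOD3 in FAP-like cells, and SOD2, TXNRD1 and SRXN1 in macrophage-like cells of both libraries.

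FMO1 was found in endothelial-like and FAP-like cells of both libraries and was higher in Yorkshire in both classes. In endothelial-like cells its level was 229 CPM (208 to 253) in GDSS and 643 CPM (626 to 661) in Yorkshire, 2.80-fold higher in Yorkshire (2.54 to 3.11). FAP-like cells held 18.0 CPM (16.5 to 19.7) in GDSS and 169 CPM (161 to 178) in Yorkshire, 9.40-fold higher in Yorkshire (8.48 to 10.4). So endothelial-like cells came first and FAP-like cells next in each library, and the gap between those classes was wider in GDSS. In satellite-like cells FMO1 had 2.77 CPM (0.572 to 8.11) in GDSS, from 3 UMIs, and 3.70 CPM in Yorkshire. The level estimated for free RNA was 1.79 CPM in GDSS, inside that interval, and 8.41 CPM in Yorkshire, above the Yorkshire value. No FMO1 UMI was seen in the 97 myofibre-like or the 282 glia-like cells of GDSS, which by the limit used here for a count of 0 (3 UMIs of the class total) allows up to 15.4 and 4.50 CPM. Of FAP-like cells, 4.37% in GDSS and 28.3% in Yorkshire had an FMO1 UMI, at median depths of 2979 and 3712 UMIs. Satellite-like cells, taken as a class that should lack it, had 0.519% in GDSS and 1.22% in Yorkshire, at median depths of 2399 and 3076 UMIs. Thinning to 1500 UMIs left out cells with fewer UMIs. These were 543 FAP-like cells in GDSS and 79 in Yorkshire, and 54 endothelial-like cells in GDSS and 148 in Yorkshire. Among the thinned cells, the FAP-like shares were 2.30% in GDSS and 17.8% in Yorkshire. The endothelial-like shares were 25.3% in GDSS and 60.8% in Yorkshire.

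Within endothelial-like cells FMO1 sat with CD36, a fatty acid transporter of capillaries. Cells with a CD36 UMI held 239 CPM in GDSS (295 cells) and 718 CPM in Yorkshire (1530 cells). Those without one held 25.7 CPM in GDSS (20 cells, 2 FMO1 UMIs) and 49.4 CPM in Yorkshire (130 cells). Cells with a UMI of GJA5, a connexin of arteries, had 82.1 CPM in GDSS and 355 CPM in Yorkshire, below the 257 CPM in GDSS and 674 CPM in Yorkshire of cells without it. The order of the libraries was the same in each of these cell groups. The markers of mural cells, the cells around vessels, summed to 1541 CPM in endothelial-like cells of GDSS and 321.5 CPM in those of Yorkshire, with none of the 7 markers at 0, against endothelial markers at 3931 CPM in GDSS cells and 5758 CPM in Yorkshire cells. With clusters in place of gates, which leave out a cluster that carried both marker sets, the endothelial-like log2 ratio of FMO1 was -1.32, against -1.49 by gates.

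FMO2, the paralog that neighbours FMO1 in the pig genome, had its highest level in FAP-like cells in both libraries. It stood there at 81.5 CPM (78.2 to 85.0) in GDSS and 111 CPM (104 to 118) in Yorkshire. The ratio of 1.36-fold in favour of Yorkshire (1.26 to 1.47) is below 1.5-fold, so it did not count as apart. It did with thinned cells, with a stricter gate and with equal weight per stromal state (log2 ratio -0.74, against -0.45). Endothelial-like cells followed with 10.8 CPM in GDSS (19 UMIs) and 21.7 CPM in Yorkshire (181 UMIs), 2.02-fold higher in Yorkshire (1.25 to 3.43), and the GDSS value was not above the 13.1 CPM estimated for free RNA. All other classes were at or below 5.24 CPM, and glia-like cells had no FMO2 UMI in either library. The share of FAP-like cells with an FMO2 UMI was 16.1% in GDSS and 20.3% in Yorkshire, or 10.2% in GDSS and 13.1% in Yorkshire after thinning. Satellite-like cells had none of 385 cells in GDSS and 0.203% in Yorkshire.

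AOX1, which encodes the molybdenum enzyme aldehyde oxidase, was a low FAP-like gene. Its level there was 4.29 CPM (3.54 to 5.14) in GDSS and 30.1 CPM (26.6 to 34.0) in Yorkshire, 7.03-fold higher in Yorkshire (5.63 to 8.83). In Yorkshire, mural-like cells came next with 12.7 CPM and satellite-like cells with 5.69 CPM, while GDSS had 1.31 CPM in mural-like cells (1 UMI) and no UMI in satellite-like cells, which allows up to 2.77 CPM. The share of FAP-like cells with an AOX1 UMI was 1.42% in GDSS and 10.7% in Yorkshire, or 0.701% in GDSS and 4.49% in Yorkshire after thinning.

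CYP2B22, a pig cytochrome P450 of the drug-oxidising 2B subfamily, was placed elsewhere: it was a gene of satellite-like and myofibre-like cells in Yorkshire. Satellite-like cells held 13.9 CPM (7.76 to 22.9) in GDSS, from 15 UMIs, and 126 CPM (121 to 132) in Yorkshire, 9.10-fold higher in Yorkshire (5.51 to 16.3). Myofibre-like cells held 5.14 CPM in GDSS, from 1 UMI, and 81.0 CPM (68.8 to 94.6) in Yorkshire, a ratio of 15.7-fold with a wide interval (2.79 to 626). FAP-like cells held 1.88 CPM in GDSS and 19.7 CPM (16.8 to 22.9) in Yorkshire, 10.4-fold higher in Yorkshire (7.59 to 14.6). Thus all 3 measured classes were on the Yorkshire side. In GDSS satellite-like cells were above FAP-like cells (1.40 to 2.48), while the wide myofibre-like interval (0.130 to 28.7) overlaps both. The thinned share of satellite-like cells with a CYP2B22 UMI was 1.80% in GDSS and 16.1% in Yorkshire, against 3.38% in GDSS and 27.5% in Yorkshire before thinning. Endothelial-like cells had 0.635% in GDSS and 2.17% in Yorkshire before thinning, at median depths of 3496 and 3207.5 UMIs, and the Yorkshire level there was not above free RNA. Satellite-like cells with PAX7 and without MYOD1, the marker pair of resting stem cells, had 2 CYP2B22 UMIs (5.83 CPM) in 132 GDSS cells and 570 UMIs (154 CPM) in 1122 Yorkshire cells. Cells with MYOD1, which marks activated cells, had 17.3 CPM in GDSS and 114 CPM in Yorkshire.

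GSTM3, a glutathione transferase of the mu class, was spread over more classes than the phase I genes and was higher in Yorkshire wherever it was measured. Myofibre-like cells led in Yorkshire, with 20.6 CPM (5.61 to 52.7) in GDSS and 151 CPM (134 to 169) in Yorkshire, 7.35-fold higher in Yorkshire (2.84 to 27.2). The GDSS value came from 4 UMIs in 2 cells, and 10 cells held 34.9% of the Yorkshire UMIs. Mural-like cells had 6.54 CPM in GDSS, from 5 UMIs, and 49.4 CPM in Yorkshire, 7.55-fold higher in Yorkshire (3.14 to 23.7). Satellite-like cells had 1.85 CPM in GDSS, from 2 UMIs, and 28.4 CPM (25.8 to 31.2) in Yorkshire, a ratio of 15.4-fold (4.23 to 127). FAP-like cells, the lowest of these in Yorkshire, had 1.96 CPM in GDSS and 20.5 CPM in Yorkshire, 10.5-fold higher in Yorkshire (7.65 to 14.5). Macrophage-like cells had 12.0 CPM in GDSS, from 10 cells, and 45.8 CPM in Yorkshire, under the minimum count. The files give CYP2B22, GSTM3, FMO1, FMO2 and AOX1 a single symbol each, but all have close relatives, and RefSeq (Sscrofa11.1, used for gene order only) puts FMO1 between FMO2 and FMO4, AOX1 beside AOX4, and CYP2B22 between 2 unnamed genes. Reads shared by near-identical copies cannot be assigned, so these levels are uncertain to that extent.

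ALDH3A1, an aldehyde dehydrogenase best known from the cornea, was highest in satellite-like cells in Yorkshire, with 29.6 CPM (20.2 to 41.8) in GDSS and 41.2 CPM (38.0 to 44.6) in Yorkshire. This was the only class in which it was measured, and its ratio of 1.39-fold in favour of Yorkshire (0.976 to 2.05) was not apart. With clusters in place of gates the log2 ratio was 0.47, against -0.48. The 10 highest cells held 68.8% of its GDSS satellite-like UMIs and 9.47% of its Yorkshire ones. Myofibre-like cells followed with 25.7 CPM in GDSS (5 UMIs) and 27.7 CPM in Yorkshire, then glia-like cells with 24.0 CPM in GDSS and 12.1 CPM in Yorkshire. In GDSS the intervals of these 3 classes overlap.

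SOD2, the manganese superoxide dismutase of mitochondria, was found in every class and was highest in macrophage-like cells. These held 1479 CPM in GDSS (24.0% of the UMIs in 10 cells) and 858 CPM in Yorkshire (39.6% in 10 cells), 1.72-fold higher in GDSS (1.60 to 1.86). With thinned cells that log2 ratio was 0.48, against 0.79, and not apart. Summed myofibre markers in these cells stood at 178 CPM in GDSS cells and 906 CPM in Yorkshire cells, and their part was not tested. In endothelial-like cells the order was the other way, with 78.2 CPM (65.7 to 92.3) in GDSS and 198 CPM (188 to 207) in Yorkshire, 2.53-fold higher in Yorkshire (2.13 to 3.03). FAP-like cells, with 139 CPM in GDSS and 147 CPM in Yorkshire, and satellite-like cells, with 110 CPM in GDSS and 104 CPM in Yorkshire, were not apart. The endothelial-like difference was larger in cells with a UMI of ACKR1, a chemokine receptor of venules. Those cells held 162 CPM in GDSS (27 cells) and 678 CPM in Yorkshire (148 cells), 4.20-fold higher in Yorkshire. Cells without ACKR1 held 56.4 CPM in GDSS and 67.6 CPM in Yorkshire, 1.20-fold higher in Yorkshire (0.942 to 1.54) and not apart, and the difference between these ratios was not tested. The cells with ACKR1 were also the deeper ones, with median depths of 7582 UMIs in GDSS and 8410 UMIs in Yorkshire, against 3182 UMIs in GDSS and 2988.5 UMIs in Yorkshire without it.

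SOD3, the secreted superoxide dismutase that binds to the matrix, was a FAP-like gene. Its level there was 43.0 CPM (40.6 to 45.6) in GDSS and 121 CPM (114 to 129) in Yorkshire, 2.82-fold higher in Yorkshire (2.59 to 3.07). Satellite-like cells had 6.47 CPM in GDSS, from 7 UMIs, and 16.6 CPM in Yorkshire, 2.56-fold higher in Yorkshire (1.23 to 6.44). With clusters in place of marker gates the satellite-like log2 ratio was -0.38, against -1.36, and no longer apart. Endothelial-like cells, with 1.13 CPM in GDSS and 1.44 CPM in Yorkshire, were not above free RNA. The share of FAP-like cells with a SOD3 UMI was 12.1% in GDSS and 29.95% in Yorkshire, or 6.20% in GDSS and 15.2% in Yorkshire after thinning.

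TXNRD1, the cytosolic thioredoxin reductase, a selenoprotein, was measured in all 7 classes and did not lean to one library. Macrophage-like cells were highest, with 1307 CPM in GDSS and 935 CPM in Yorkshire, 1.40-fold higher in GDSS and not apart. They were apart under both other scalings, with a 5% mitochondrial limit and with thinned cells (log2 ratio up to 0.79, against 0.48), as glia-like cells were under both other scalings and with free RNA subtracted (up to 0.67, against 0.44). FAP-like cells had 248 CPM in GDSS and 149 CPM in Yorkshire, 1.67-fold higher in GDSS (1.57 to 1.77), and mural-like cells 215 CPM in GDSS and 136 CPM in Yorkshire, 1.57-fold higher in GDSS (1.30 to 1.91). Satellite-like cells had 223 CPM in GDSS and 471 CPM in Yorkshire, 2.11-fold higher in Yorkshire (1.86 to 2.41), and myofibre-like cells 159 CPM in GDSS and 272 CPM in Yorkshire, 1.70-fold higher in Yorkshire (1.19 to 2.53). Muscle-lineage cells and stromal or mural cells thus stood on opposite sides, an opposition that was not tested. The myofibre-like cells also carried satellite markers, summing to 1790 CPM in GDSS and 1721 CPM in Yorkshire, so these classes are not independent. Among satellite-like cells, those with PAX7 and without MYOD1 had 172 CPM in GDSS and 534 CPM in Yorkshire, and those with MYOD1 236 CPM in GDSS and 414 CPM in Yorkshire. Endothelial-like cells, with 412 CPM in GDSS and 330 CPM in Yorkshire, were not apart, and the log2 ratio of 0.32 turned to -0.06 in thinned cells. The GDSS excess in FAP-like cells was below 1.5-fold when each stromal state had equal weight (log2 ratio 0.50, against 0.74). The mural-like excess also dropped under 1.5-fold with thinned cells, with doublets kept or with a limit of 5% mitochondrial UMIs, to log2 0.46 at the lowest.

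SRXN1, sulfiredoxin, which restores over-oxidised peroxiredoxins, was highest in macrophage-like cells. These had 373 CPM in GDSS (33.0% of the UMIs in 10 cells) and 212 CPM in Yorkshire (47.8% in 10 cells), 1.76-fold higher in GDSS (1.51 to 2.05). FAP-like cells had 44.5 CPM in GDSS and 17.2 CPM in Yorkshire, 2.58-fold higher in GDSS (2.18 to 3.09). Endothelial-like cells had 27.2 CPM in GDSS and 12.2 CPM in Yorkshire, 2.22-fold higher in GDSS (1.54 to 3.17), but 10 cells held 72.9% of the GDSS and 33.3% of the Yorkshire UMIs. Satellite-like cells, with 71.2 CPM in GDSS and 100.2 CPM in Yorkshire, were not apart. Myofibre-like cells had 36.0 CPM in GDSS, from 7 UMIs, and 77.9 CPM in Yorkshire, 2.16-fold higher in Yorkshire with an interval that comes near equality. That log2 ratio of -1.11 was -2.02 with clusters in place of gates and -1.80 with the 5% mitochondrial limit.

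**Figure D2:**
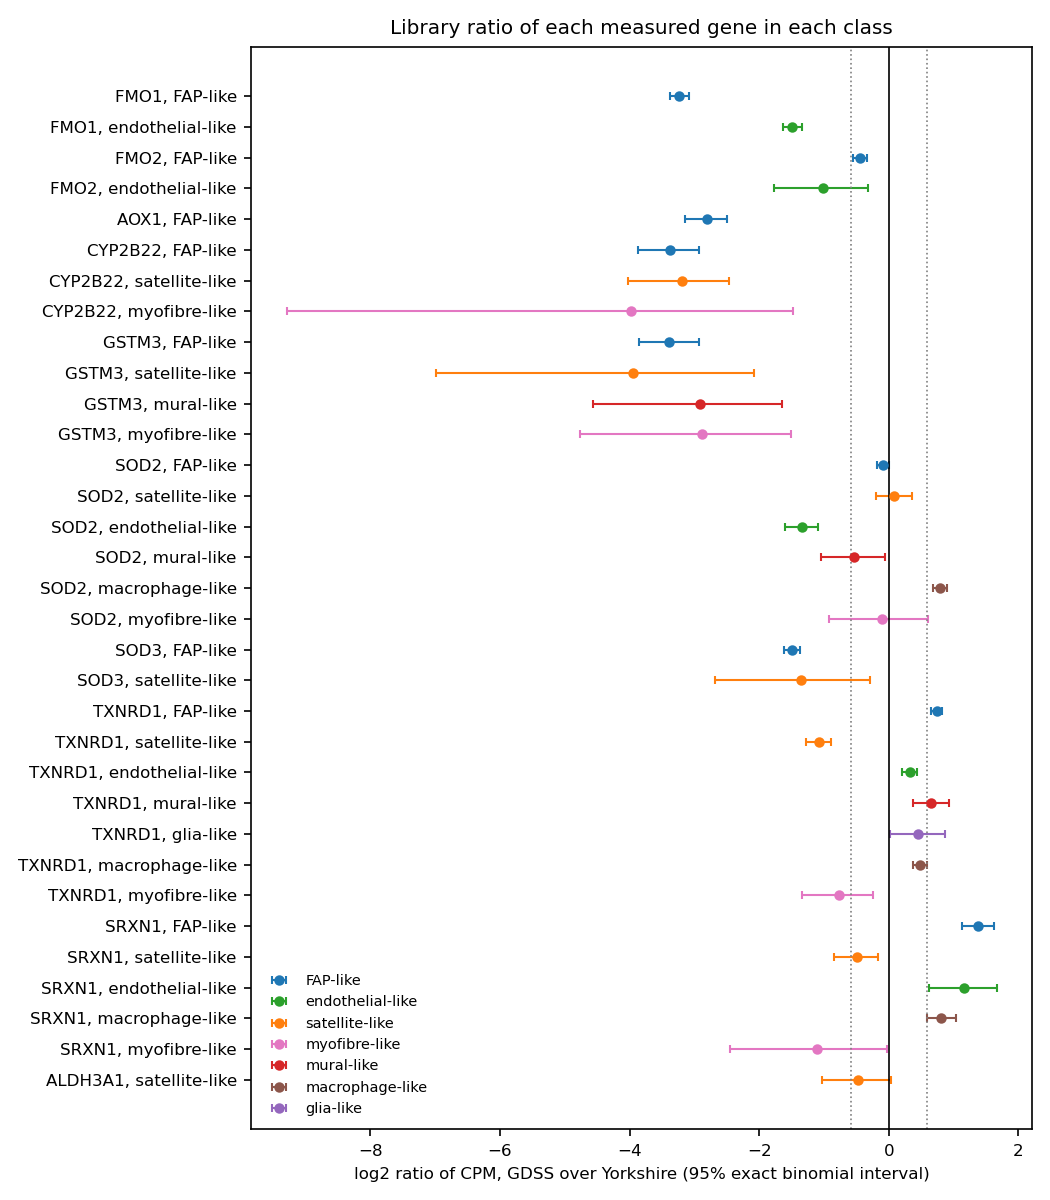
Log2 ratio of CPM, GDSS over Yorkshire (x axis), for each gene in each class where it was measured (y axis), with 95% exact binomial intervals that cover counting error; dotted lines mark 1.5-fold. FMO1, AOX1, CYP2B22, GSTM3 and SOD3 lie left of 0 (higher in Yorkshire) in every class shown, down to -3.98 for CYP2B22 in myofibre-like cells, while TXNRD1 and SRXN1 lie on both sides.

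Counted by class, 9 genes were measured in FAP-like cells, of which 2 (TXNRD1 and SRXN1) were apart with GDSS higher and 5 (FMO1, AOX1, CYP2B22, GSTM3 and SOD3) with Yorkshire higher. Over all 9939 genes measured in FAP-like cells, 22.9% were apart, 6.23% higher in GDSS and 16.7% higher in Yorkshire. The median log2 ratio was -1.50 over the 9 genes and -0.15 over all genes. With TMM scaling the median of all genes was 0.07, and the split of calls over all genes was 1257 higher in GDSS and 846 in Yorkshire, against 619 in GDSS and 1659 in Yorkshire by class totals. In satellite-like cells 4 of 7 measured genes were apart, against 34.7% of all genes, and all 4 were higher in Yorkshire, against 21.2% of all genes on that side. Endothelial-like cells had 1 of 5 apart with GDSS higher and 3 with Yorkshire higher, where all genes gave 12.7% and 13.6%. In macrophage-like cells 2 of 3 were higher in GDSS, where all genes gave 11.5%, and in myofibre-like cells 4 of 5 were higher in Yorkshire, where all genes gave 18.6%, and none in GDSS, where all genes gave 9.11%. Mural-like cells had 1 of 3 on each side, where 22.3% of all genes were apart, 6.99% in GDSS and 15.3% in Yorkshire, and glia-like cells had 1 gene measured, TXNRD1, which was not apart (30.4% of all genes were, 9.31% with GDSS higher).

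For several genes the class with the largest share of UMIs differed between the 2 libraries, as it did for all UMIs together. Of all UMIs in kept cells, FAP-like cells held 72.3% in GDSS and 18.3% in Yorkshire, satellite-like cells 2.89% in GDSS and 32.2% in Yorkshire, and endothelial-like cells 4.72% in GDSS and 17.8% in Yorkshire. FAP-like cells supplied 50.3% of FMO1 UMIs in GDSS and 19.9% in Yorkshire, and endothelial-like cells 41.8% in GDSS and 73.5% in Yorkshire. TXNRD1 came to 55.5% from FAP-like cells in GDSS and 7.72% in Yorkshire, and to 1.99% from satellite-like cells in GDSS and 43.0% in Yorkshire. CYP2B22 came to 17.2% from satellite-like cells in GDSS and 61.2% in Yorkshire. FMO2 kept its main source, with 94.6% in FAP-like cells in GDSS and 70.4% in Yorkshire, as did SOD3, with 91.7% in GDSS and 61.5% in Yorkshire.

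**Figure D3:**
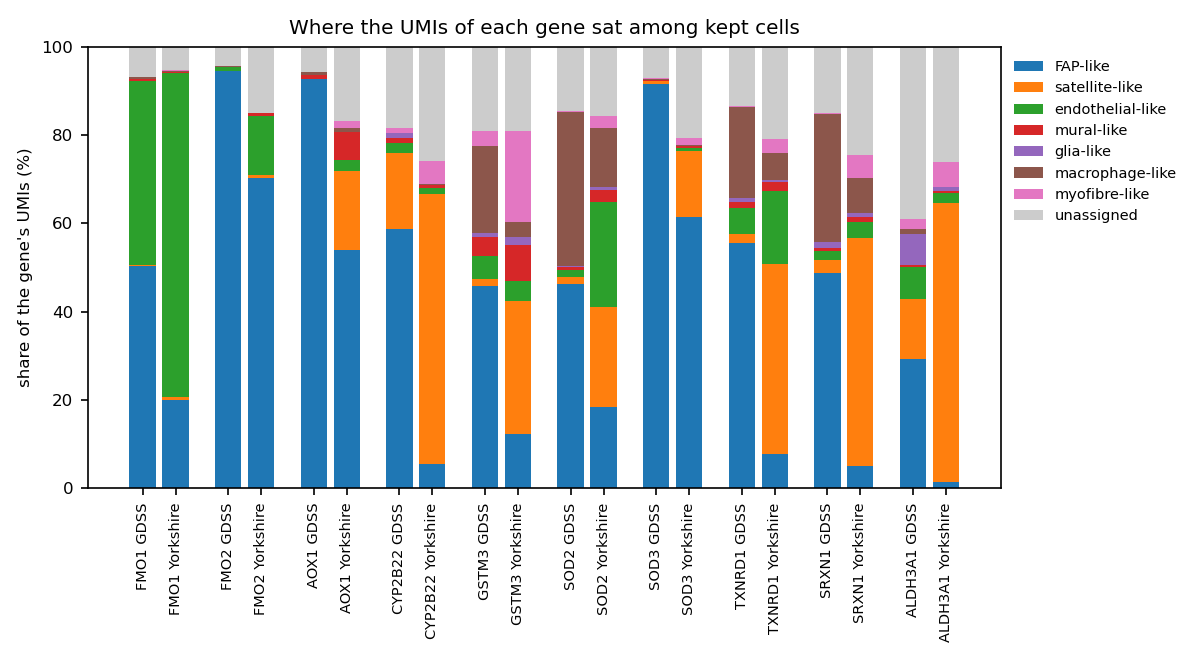
Share of each gene's UMIs (y axis, percent) that lay in each cell class or in cells with no class, 1 bar per gene and library (x axis), GDSS left of Yorkshire. SRXN1 had 48.7% in FAP-like cells in GDSS and 5.05% in Yorkshire, and 3.11% in satellite-like cells in GDSS and 51.7% in Yorkshire, beside class sizes that differ in the same direction.

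FAP-like cells were split further by 9 marker gates named after their leading gene. The gate markers came from earlier groupings of these cells in which the 10 genes took part, so the order of levels across gates is description. FMO1 was highest in the ADAMTS5 gate, with 40.9 CPM in GDSS (450 cells) and 392 CPM in Yorkshire (389 cells). It was low in the THBS4 gate, with 1.76 CPM in GDSS (3 UMIs) and 28.0 CPM in Yorkshire (27 UMIs), a total under the minimum count. That excess of Yorkshire was 9.60-fold in the ADAMTS5 gate, 11.3-fold in both the PI16 and MME gates, 13.4-fold in the IRF8 gate and 4.96-fold in the HHIP gate. So the FMO1 difference was present inside each of these gates. FMO2 had the same highest gate, with 139 CPM in GDSS and 246 CPM in Yorkshire, and was higher in Yorkshire in 6 gates by 1.68-fold to 2.02-fold. In the 2915 GDSS and 594 Yorkshire cells of no gate it was not apart, with 92.2 CPM in GDSS and 98.3 CPM in Yorkshire.

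AOX1 in Yorkshire again was highest in the ADAMTS5 gate, which had 5.84 CPM in GDSS and 57.3 CPM in Yorkshire. In GDSS the MME and IRF8 gates were as high within overlapping intervals. The MME gate had 7.92 CPM in GDSS (16 UMIs) and 35.4 CPM in Yorkshire (14 UMIs). The IRF8 gate had 6.10 CPM in GDSS (18 UMIs) and 29.8 CPM in Yorkshire (5 UMIs). In the ADAMTS5, MME and IRF8 gates alike the AOX1 total was under the minimum count. SOD3 in the ADAMTS5 gate had 64.2 CPM in GDSS and 186 CPM in Yorkshire, and in the CCL2 gate 42.3 CPM in GDSS and 152 CPM in Yorkshire. Cells of the CLDN1 gate went the other way for SOD3, with 82.8 CPM (58.6 to 114) in GDSS and 37.3 CPM (25.2 to 53.3) in Yorkshire, on a total under the minimum count. TNMD-gate cells had no FMO1 or AOX1 UMI in GDSS, which allows up to 3.24 CPM, and 3.70 CPM of FMO1 and 2.47 CPM of AOX1 in Yorkshire.

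TXNRD1 and SRXN1 were highest in the CCL2 gate among GDSS cells, or near it. TXNRD1 had 601 CPM there in GDSS (756 cells) and 258 CPM in Yorkshire (46 cells), 2.33-fold higher in GDSS. SRXN1 had 116 CPM there in GDSS and 47.2 CPM in Yorkshire, 2.46-fold higher in GDSS. In the CLDN1 gate it had 118 CPM in GDSS (54 UMIs) and 38.6 CPM in Yorkshire (31 UMIs), under the minimum count. In the ADAMTS5 gate TXNRD1 was not apart, at 195 CPM in GDSS cells and 163 CPM in Yorkshire cells. SRXN1 stood there at 19.0 CPM in GDSS cells (26 UMIs) and 17.3 CPM in Yorkshire cells (26 UMIs), under the minimum count. In the PI16 gate SRXN1 had 54.7 CPM in GDSS and 4.66 CPM in Yorkshire, where Yorkshire had 3 UMIs, a ratio of 11.8-fold (3.96 to 57.6). The CCL2 gate, defined by the inflammatory genes CCL2, CXCL2, IL6 and ICAM1, held 9.67% of FAP-like cells in GDSS and 2.31% in Yorkshire. The heat shock genes DNAJB1 and HSPA8 moved with these results. Over FAP-like cells DNAJB1 stood at 5570 CPM in GDSS cells and 1520 CPM in Yorkshire cells, and HSPA8 at 6008 CPM in GDSS cells and 2262 CPM in Yorkshire cells. Their part in the TXNRD1 and SRXN1 levels was not tested. SOD2 was highest in the CCL2 gate too, at 234 CPM in GDSS cells and 348 CPM in Yorkshire cells, and not apart. Of its 96 Yorkshire UMIs in that gate, 39 lay in 1 of the 46 cells. In the CCL2 gate GSTM3 had 2.33 CPM in GDSS (7 UMIs) and 43.5 CPM in Yorkshire (12 UMIs, up to 6 in 1 cell). In the CLDN1 gate it had 8.71 CPM in GDSS (4 UMIs) and 42.3 CPM in Yorkshire (34 UMIs). Both totals were under the minimum count.

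**Figure D4:**
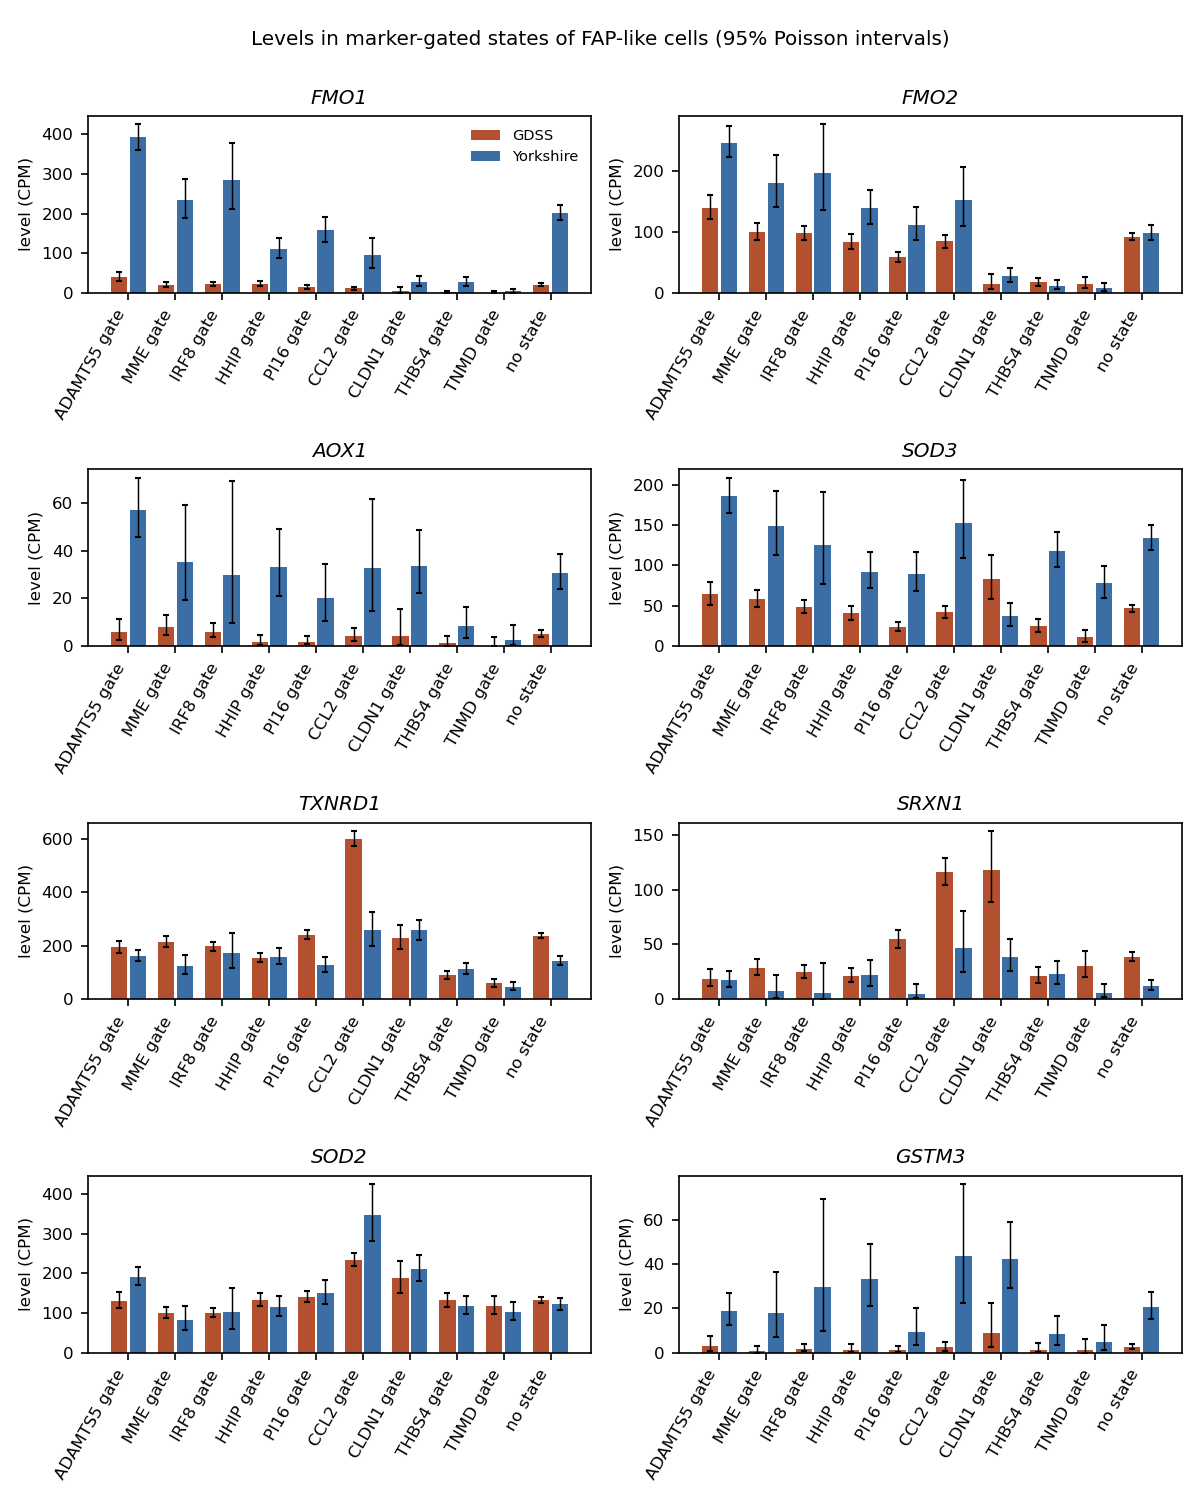
Level in CPM (y axis, a separate linear scale per gene) of 8 of the genes in the marker gates of FAP-like cells and in cells of no gate (x axis), GDSS bars left of Yorkshire bars, with 95% exact Poisson intervals. FMO1 in Yorkshire runs from 392 CPM in the ADAMTS5 gate to 3.70 CPM in the TNMD gate, and TXNRD1 in GDSS is highest in the CCL2 gate at 601 CPM.

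At the level of single cells, thinned to 1500 UMIs, SRXN1 was seen more often where TXNRD1 was in some classes. In GDSS FAP-like cells 8.71% (7.40 to 10.2) of those with a TXNRD1 UMI and 2.60% (2.20 to 3.05) of those without one had an SRXN1 UMI, while in Yorkshire the shares were 2.44% and 2.08%, with overlapping intervals. In satellite-like cells the shares with and without TXNRD1 were 16.7% and 3.73% in GDSS and 14.9% and 7.72% in Yorkshire. FMO2 was seen in 13.8% of FAP-like cells with FMO1 and 10.1% of those without it in GDSS, and in 20.8% (16.6 to 25.5) and 11.4% (9.91 to 13.1) in Yorkshire. SOD2 and FMO1 parted in Yorkshire endothelial-like cells, where SOD2 was seen in 6.20% (4.73 to 7.96) of cells with FMO1 and 16.0% (13.2 to 19.2) of cells without it.

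**Figure D5:**
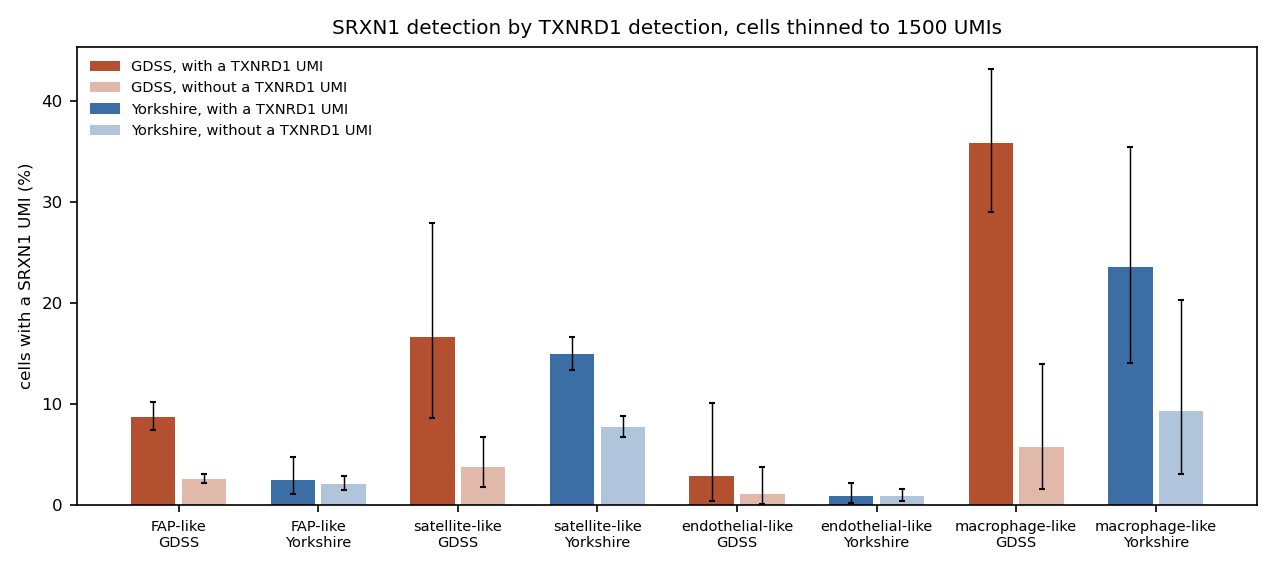
Share of cells with an SRXN1 UMI (y axis, percent) among cells with and without a TXNRD1 UMI, by class and library (x axis), with 95% exact Clopper-Pearson intervals. Cells were thinned to 1500 UMIs, and cells with fewer were left out. In GDSS macrophage-like cells the share is 35.8% with TXNRD1 and 5.71% without it, and in Yorkshire FAP-like cells the bars are nearly level at 2.44% and 2.08%.

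The genes most like each enzyme gene were sought over the 14 sums of 7 classes in both libraries, by Pearson's r of log2(CPM + 1) among 10137 genes; sums of 1 library share that library, so r is a description. FMO1 was most like CLEC1A (r = 0.939), a lectin receptor of endothelium, and FMO2 most like FCN2 (0.962). SOD2 followed the macrophage genes LGMN (0.959), PLEK (0.941) and C1QA (0.939), and SOD3 the matrix gene ISLR (0.941). C1QA is itself a marker of the macrophage gate, so its peak in that class was set by the gate. SRXN1 was most like BACH1 (0.929), the repressor that competes with NRF2, and TXNRD1 like PRRG4 (0.927). CYP2B22 was most like the read-through gene RPL17-C18orf32 (0.906), then CD79A (0.903) and FAM180A (0.901), and ALDH3A1 was most like PHAX (0.934). AOX1 (APPL1, 0.848) and GSTM3 (PHTF2, 0.853) had no partner above 0.86.

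Other genes of these pathways were taken from lists and read in FAP-like cells against all genes, of which 6.23% were higher in GDSS and 16.7% in Yorkshire (median log2 ratio -0.15). Of 24 further phase I genes in the files 15 were measured, 4 were higher in Yorkshire, none was higher in GDSS, and the median log2 ratio was -0.32. Those 4 were CYP1B1, a P450 of steroids and aromatic compounds, at 19.6 CPM in GDSS cells and 71.2 CPM in Yorkshire cells, EPHX1, an epoxide hydrolase, at 26.2 CPM in GDSS cells and 60.6 CPM in Yorkshire cells, the quinone reductase NQO2, and FMO4 at 20.6 CPM in GDSS cells and 33.6 CPM in Yorkshire cells. Of 20 glutathione genes 15 were measured, with 1 higher in GDSS, 1 in Yorkshire and a median of -0.10. Of 12 aldehyde dehydrogenases 10 were measured and 2 were higher in GDSS, ALDH1A2 and ALDH1A1, both makers of retinoic acid, with a median of -0.04. Of 21 superoxide, peroxide and thioredoxin genes 20 were measured, 2 higher in GDSS and 4 in Yorkshire (median -0.16), among them SESN3, a sestrin, at 27.3 CPM in GDSS cells and 71.5 CPM in Yorkshire cells. The NRF2 list had 21 measured genes, 4 higher in GDSS and none in Yorkshire, with a median of 0.23. HMOX1, heme oxygenase, stood at 129 CPM in GDSS cells and 55.4 CPM in Yorkshire cells, and SLC7A11, the cystine transporter, at 6.06 CPM in GDSS cells and 2.56 CPM in Yorkshire cells. NFE2L2, which encodes NRF2 itself, had 102 CPM in GDSS and 116 CPM in Yorkshire.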

How the data were processed

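The members, gene lists and gates were chosen with earlier results of these data known. Single-cell libraries were made with a 10x Genomics kit, per the labels' protocols. The authors deposited unnormalised UMI counts per gene and cell, from Cell Ranger (named in the submitters' processing notes) (software 3.1.0, per the file headers); R 3.5.2 is listed without a role, and the genome build is not given in the sources used here. Deposited were 12286 GDSS barcodes with 42093851 UMIs and 14695 Yorkshire barcodes with 54300953 UMIs.

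Cells were kept with at least 500 genes, at most 10% mitochondrial UMIs and a scrublet doublet score under 0.3. FAP-like cells had at least 25 FAP-marker UMIs per 10000, 2 or more FAP markers and fewer than 3 markers of another class; other classes had under 10, at least 2 markers of 1 class and more than of any other. Between both FAP limits lay 113 GDSS and 123 Yorkshire cells. Gate limits were set, and ERBB3, NOTCH3, TAGLN, COL1A1, COL1A2, COL3A1 and FOXD3 dropped from the gates, after seeing the data. Stromal gates took a marker score at least 1 SD above the mean and 0.25 above the next. Names rebuilt in this way may differ from the study's. Counts were summed per class and library. With 1 library per breed no test was run. Simulated data served to test how ratios, intervals and thinning behave.

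Free RNA was estimated in each class from the markers of other classes. Leiden clusters (resolution 1, 30 components, computed without the members) were the alternative to gates. Other alternatives were TMM (edgeR 4.0.16, R 4.3.3) and median-of-ratios scaling, 20, 500 or no minimum UMIs, a mitochondrial limit of 5%, doublets kept, cells thinned to 1500 UMIs, a stricter gate, free RNA subtracted and equal weight per stromal state. Cells with fewer than 1500 UMIs were left out wherever cells were thinned. Named were all members, up to 4 genes per list with the largest absolute log2 ratio in FAP-like cells, and the 3 genes most like each member, of which the text gives the leading ones. Splits by single genes within classes were chosen with results known. Python 3.11.15 with scanpy 1.11.5, numpy 2.4.6 and scipy 1.17.1 was used.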

Additional observations from a re-analysis of the deposited data

Results flagged for a closer look

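The libraries differed in opposite directions in different classes for 3 genes, all drawing on single libraries, and none of these differences was tested. For SOD2, macrophage-like cells (log2 ratio of GDSS over Yorkshire 0.79) and endothelial-like cells (-1.34) were 2.12 apart on the log2 scale. TXNRD1 was 1.82 apart between FAP-like (0.74) and satellite-like cells (-1.08), and 1.51 apart between FAP-like and myofibre-like cells (-0.77). Mural-like cells (0.65) were 1.74 apart from satellite-like and 1.42 apart from myofibre-like cells for the same gene. For SRXN1, myofibre-like cells (-1.11, from 7 GDSS UMIs) were 2.48 apart from FAP-like cells (1.37), 2.27 apart from endothelial-like cells (1.15) and 1.93 apart from macrophage-like cells (0.81).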

How the results depend on the processing

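Of 33 ratios of a gene in a class, 23 were apart. Of these, 19 stayed apart under every alternative in which the gene still reached the minimum count, and none of the 23 reversed. The alternatives of 20, 500 or no minimum UMIs used the same sums, so a ratio read under them equals the main value. They could therefore not lose or reverse a ratio. Alternatives that left a gene under the minimum count were not read for it. The GSTM3 ratio in mural-like cells was thus read under 7 alternatives and the SRXN1 ratio in endothelial-like cells under 8. Both numbers include alternatives that changed only the minimum number of UMIs. The 4 lost under some setting (SOD2 in macrophage-like, SOD3 in satellite-like, TXNRD1 in FAP-like and mural-like cells) are given above, and the cause was not tested. Counts of genes apart moved with the minimum number of UMIs, as fewer or more genes were then measured. Over all genes in FAP-like cells 2278 were apart, against 3677 with at least 20 UMIs, 1039 with at least 500 and 6767 with no minimum. Of the enzyme genes 7 were apart in FAP-like cells and 4 with at least 500 UMIs. In endothelial-like cells 4 were apart, against 7 with at least 20 UMIs or no minimum and 2 with at least 500 UMIs or thinned cells, and in satellite-like cells 4, against 2 with at least 500. Subtracting free RNA moved endothelial-like log2 ratios to -3.30 for FMO2 and -2.34 for SOD2, and the mural-like SOD2 ratio to -1.50. With clusters the ratio was -2.31 for GSTM3 in satellite-like cells and -2.11 for CYP2B22 in myofibre-like cells, where GDSS had 2 UMIs and 1 UMI by gates. No paired analysis was possible because each breed had 1 library. Depth limits the small GDSS classes most: a count of 0 allows up to 15.4 CPM in myofibre-like, 4.50 in glia-like and 3.93 in mural-like cells.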

Other observations

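In FAP-like cells the NF-kB response list had 12 measured genes, of which 5 were higher in GDSS and none in Yorkshire; the median log2 ratio was 0.27. Over all genes measured in those cells 6.23% were higher in GDSS and 16.7% in Yorkshire. Among the 5 list genes were ICAM1, CXCL2, IL6 and CCL2, which define the CCL2 gate, so this count and the share of cells in that gate are not independent. ICAM1, a leukocyte adhesion molecule, stood at 241 CPM in GDSS cells and 56.0 CPM in Yorkshire cells, and the cytokine IL6 at 54.1 CPM in GDSS cells and 21.3 CPM in Yorkshire cells. Among 6 measured receptors of foreign compounds and their partners 2 were higher in Yorkshire: RXRA, at 18.0 CPM in GDSS cells and 28.5 CPM in Yorkshire cells, and PPARA. AHR, the receptor behind CYP1B1 induction, was not apart, with 7.17 CPM in GDSS and 8.72 CPM in Yorkshire. In macrophage-like cells the NRF2 list had 16 measured genes, of which 7 were higher in GDSS and 2 in Yorkshire (median 0.52), where all genes gave 11.5% in GDSS and 14.7% in Yorkshire. In satellite-like cells the same list had 16 measured genes, none of which was higher in GDSS and 3 of which were in Yorkshire (median 0.01), a share near that of all genes, which gave 13.5% in GDSS and 21.2% in Yorkshire. The heat shock gene DNAJB1, higher in GDSS among FAP-like cells, had 2462 CPM in satellite-like cells of GDSS and 2569 CPM in those of Yorkshire.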
